A study of Drosophila melanogaster with 12 samples.

Results

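The starvation response of Drosophila larvae that lack the nuclear receptor HNF4 was set against that of control larvae, transcript by transcript. The quantity described here is the difference of 2 responses on the log2 scale: starved minus fed in HNF4 null larvae, minus starved minus fed in control larvae. All 12 arrays of the series enter it, 3 in each of 4 groups, so it uses 12 of 12 arrays. HNF4 null larvae carried the HNF4(del33) deletion over HNF4(del17), and in controls a precise excision of EP2449 stood over one of KG08976, both of them P-element insertions. Late second instar larvae of each genotype were either moved to buffer-soaked paper for 24 h or left on food. Whole-animal RNA came from the mid-third instar survivors that looked healthy after the molt, so larvae that failed to molt or looked sick are not represented in any group. The groups are named below as starved null, fed null, starved control and fed control larvae.

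HNF4 is a member of the nuclear receptor family, whose mammalian counterpart acts in liver, kidney, intestine and pancreatic islets on genes of lipid and glucose metabolism. A larva without food lives on the triglyceride stored in its fat body: lipases release fatty acids, the carnitine shuttle carries them into mitochondria, and β-oxidation cuts them into acetyl-CoA. Fatty acid synthesis, growth and cell division are turned down at the same time, while autophagy is turned up.

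The values are deposited dChip expression intensities for 9669 probe sets, taken to log2 and fitted with limma over all 12 arrays. Array medians lay between 483 and 552, and replicates of a group correlated at 0.968 to 0.994 over probe sets. The labels name triplicate samples and no shared litter or day, so p-values measure the spread between these samples. The precision is limited by the number of arrays. Control fed replicate 3 and HNF4 null starved replicate 2 had the lowest estimated array weights, 0.287 and 0.454. On the second principal component control fed replicate 3 lay at 9.7, apart from control fed replicates 1 and 2 at -15.7 and -11.7. It fell there within the range of the fed null arrays, which lay at -0.36, 13.9 and 8.0. Why it did so was not tested. Hnf4 itself (CG9310) was detected in every array at 2784, 2938 and 3189.6 in starved null larvae, 1641, 1540.4 and 1482 in fed null larvae, 1736, 1818 and 1937 in starved controls and 1327, 1207 and 1228 in fed controls. Its responses differed by 0.39 ± 0.11 (SE; limma adjusted p = 0.0981), and the position of its probes against the 2 deletions is unknown here, so it is no check on the labelled genotypes.

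Starvation moved most transcripts in both genotypes, and largely the same way. The response passed an adjusted p of 0.05 for 7322 probe sets in null larvae (75.7%) and for 6594 in controls (68.2%). These shares cover rises and falls together, and counts of list members that rose or fell are to be read beside them. Across the 9669 probe sets the responses of the 2 genotypes, which share no array, had a Pearson correlation of 0.916 and a Spearman correlation of 0.926. That correlation is across probe sets, which are not independent replicates. The spread of the response was wider in null larvae, with a standard deviation of 0.91 against 0.79 in controls, a ratio of 1.16 that lay between 1.12 and 1.23 when each array was left out in turn. In null larvae the response was the larger of the pair for 67.6% of probe sets, a share that was 54.3% in the series matrix, the other deposited table of the same arrays.

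The responses of the genotypes differed for 250 of 9669 probe sets (2.59%; limma, Benjamini-Hochberg adjusted p under 0.05). The response was more positive in null larvae for 176 of them (1.82%) and more negative for 74 (0.765%). Without adjustment 1693 probe sets had p under 0.05. The 250 probe sets stand for 216 genes with an unambiguous symbol, while 13 carry several symbols and 19 none. The difference was at least 2-fold for 75 of them, and its median size was 0.78 on the log2 scale, beside a median of -0.019 for the signed difference over all probe sets. With each array median-centred the split among 219 called probe sets was 131 more positive to 88 more negative.

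That count depended on single arrays. It was 113, 447 and 81 without HNF4 null starved replicates 1, 2 and 3, and 140, 113 and 88 without HNF4 null fed replicates 1, 2 and 3. Leaving out control starved replicate 1, 2 or 3 gave 85, 174 or 88 calls, and leaving out control fed replicate 1, 2 or 3 gave 132, 125 or 549. A core of 68 probe sets, 51 more positive and 17 more negative in null larvae, was called with all arrays and in all 12 of these fits. All 250 kept their sign in every one of them. Because the 250 were picked on these arrays and each fit reuses all but 1 of them, that outcome was close to fixed in advance. For each gene below, the number of these 12 fits in which it was still called is given.

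**Figure D1:**
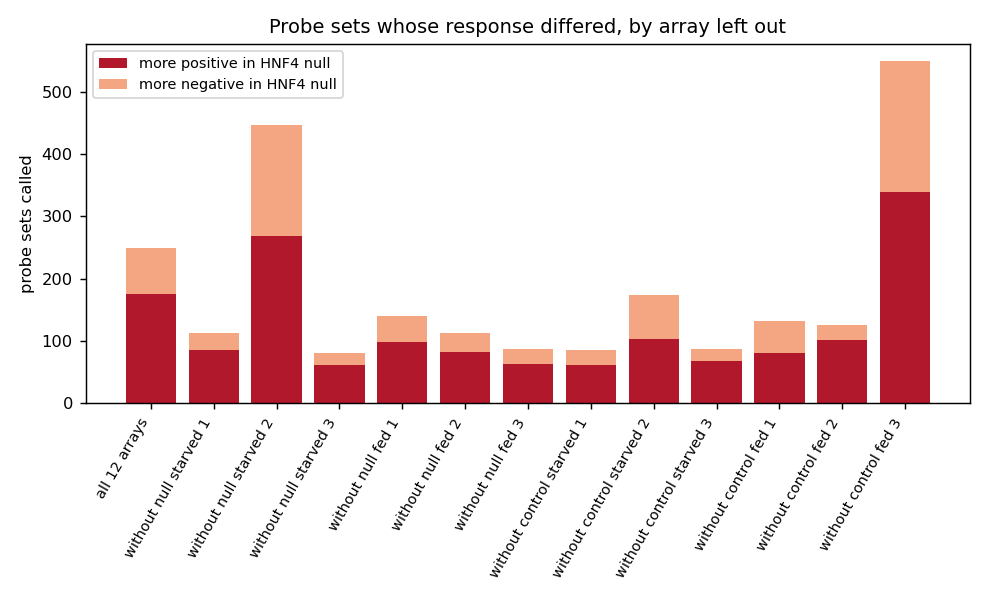
Number of probe sets whose starvation response differed between genotypes (vertical axis; adjusted p under 0.05), with all 12 arrays and with each array left out. Dark bars are probe sets more positive and light bars those more negative in HNF4 null larvae. The count runs from 81 without null starved replicate 3 to 549 without control fed replicate 3.

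Starved null arrays lay wholly above or wholly below starved control arrays for 240 of the 250 probe sets, against 29.7% of all probe sets. Fed null arrays lay apart from fed control arrays for 134 of the 250, against 13.6% of all. Both the starved and the fed arrays were apart for 124 of the 250, the starved arrays alone for 116 and the fed arrays alone for 10. Since the starved and fed arrays are part of the difference itself, these shares describe where it lies and are no further evidence for it.

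By which genotype moved, the 250 probe sets fell into 5 classes. A response was called lost if it passed the threshold only in controls, gained if only in null larvae, reversed if both passed with opposite signs, and stronger or weaker if both passed with one sign and the null response was larger or smaller. The class of stronger responses held 152 probe sets (60.8%), 129 of them more positive and 23 more negative in null larvae. There were 44 gained responses, 17 more positive and 27 more negative. The 22 reversed responses divided into 10 and 12, the 18 lost responses into 12 and 6, and the 14 weaker responses into 8 and 6. No called probe set lacked a called response in both genotypes. Among stronger responses the median size was 1.59 in null larvae against 0.82 in controls. Among gained responses it was 1.00 in null larvae against 0.14 in controls, and among lost responses 0.21 in null larvae against 0.96 in controls.

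**Figure D2:**
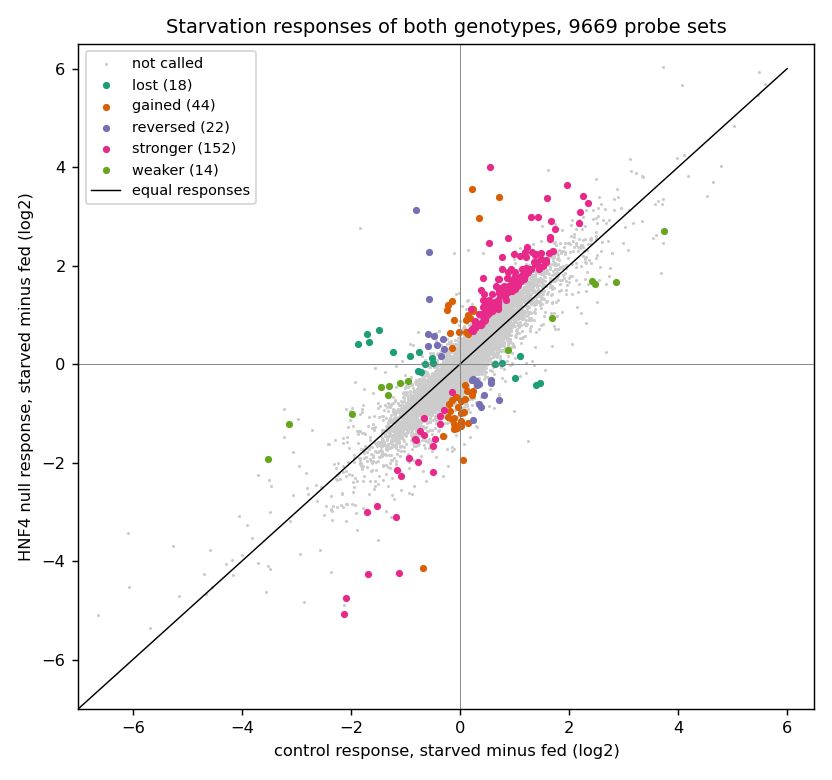
Starvation response (log2, starved minus fed) of HNF4 null larvae (vertical axis) against that of control larvae (horizontal axis) for 9669 probe sets. Coloured points are the 250 called probe sets by class, grey points the rest, and the line marks equal responses. The 129 more positive points of the stronger class lie above the line in the upper right quadrant, where starvation raised a transcript in both genotypes.

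The reversed, gained and lost responses hold a group of transcripts for enzymes of mitochondrial fatty acid β-oxidation, all in one direction. Of 21 measured genes of that list, 0 had a more positive and 8 a more negative response in null larvae, against 0.765% of all probe sets in the negative direction. The median difference of the list was -0.37, with 12 of 21 at an unadjusted p under 0.05. Between 5 and 8 members were called more negative when single arrays were left out, with 5 in the fits without HNF4 null starved replicate 3, control starved replicate 1 or control starved replicate 3, and 8 without both low-weight arrays. Without control fed replicate 3, 1 member was called more positive, and likewise without both low-weight arrays. In the series matrix 3 were called more negative, and 0 when a difference above 1.5-fold was required. The list was chosen with earlier results of these data known. The arrays hold whole larvae, so fewer cells of a type and less RNA per cell cannot be told apart in any of these values.

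At the carnitine step, colt (CG3057) encodes the carrier that brings acylcarnitines across the inner mitochondrial membrane. Its expression values were 755, 901 and 782 in starved null larvae, 1795, 1805 and 1726 in fed null larvae, 3696, 3340.2 and 4077 in starved controls and 3221, 2909.7 and 3265 in fed controls. The 4 groups did not overlap, with the starved null arrays lowest and the starved control arrays highest. Starvation lowered colt 2.19-fold in null larvae, while it raised it 1.18-fold in controls (log2 -1.13 ± 0.095 and 0.24 ± 0.095, SE, n = 3 per group). The responses differed by -1.37 ± 0.13 (limma adjusted p = 0.00072), and the difference was called in 12 of 12 fits without 1 array. whd, the carnitine palmitoyltransferase 1 that makes the acylcarnitines, was measured at 3529.7, 3266 and 3187 in starved null larvae, 558, 481 and 625 in fed null larvae, 3884, 4181 and 4312 in starved controls and 1089, 1017 and 920.4 in fed controls. Its response was 2.59 in null larvae and 2.03 in controls, and the difference of 0.56 did not pass the test (adjusted p = 0.0765). CPT2, which converts acylcarnitines back inside the mitochondrion, differed by -0.40 (adjusted p = 0.139).

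Among the enzymes of the β-oxidation spiral, the thiolase yip2 (CG4600) cuts off acetyl-CoA. It had 628, 774 and 589 in starved null larvae, 985, 689 and 762 in fed null larvae, 6870.3, 5929.7 and 7310.4 in starved controls and 3859, 3339 and 2844 in fed controls. Starvation raised it 2.01-fold in controls, while in null larvae the response of -0.28 ± 0.16 did not pass the test. The responses of yip2 differed by -1.29 ± 0.23 (adjusted p = 0.0165, called in 9 of 12 fits), and fed null arrays were already far below fed controls. CG4598, an enoyl-CoA isomerase family member next to yip2 on chromosome arm 2L, had 346, 451 and 361 in starved null larvae, 935, 826 and 869 in fed null larvae, 2421, 2066 and 2514 in starved controls and 2162, 2206 and 1944 in fed controls. There the control response was 0.15 ± 0.11 and did not pass, whereas starvation lowered it 2.28-fold in null larvae (difference -1.34 ± 0.16, adjusted p = 0.00251, 12 of 12 fits).

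scu (CG7113), a short-chain 3-hydroxyacyl-CoA dehydrogenase of the mitochondrion, followed the same pattern of a gained fall. It had 1038, 1457 and 1196 in starved null larvae, 2901, 2956 and 2922 in fed null larvae, 6591, 6163 and 7255 in starved controls and 6255, 7201 and 6383 in fed controls. Control arrays overlapped between diets, and both null groups lay below them and apart from each other. The null response was -1.26 ± 0.12 and the control response 0.012 ± 0.12, a difference of -1.28 ± 0.16 (adjusted p = 0.00382, 12 of 12 fits). CG9577, a dienoyl-CoA isomerase family member, reversed its response: it fell 1.74-fold in null larvae and rose 1.27-fold in controls. Its values were 467, 532 and 487 in starved null larvae, 867, 875 and 845 in fed null larvae, 3304, 2886 and 3422 in starved controls and 2767, 2565 and 2227 in fed controls, and the difference was -1.15 ± 0.14 (adjusted p = 0.00236, 12 of 12 fits).

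The other called members fall outside the rule for naming and were chosen after their values were seen. Arc42, a short-chain acyl-CoA dehydrogenase, fell 1.84-fold with starvation in null larvae (difference -0.84, adjusted p = 0.0102, 12 of 12 fits). Acadvl, which acts on very long chains, differed by -0.60 (adjusted p = 0.024, 5 of 12), and Mtpbeta, the β subunit of the trifunctional protein, by -0.58 (adjusted p = 0.0487, 1 of 12). All 3 were gained falls: the control responses of -0.043, -0.07 and -0.077 did not pass. The list did not move as a block, since CG4594 fell with starvation in both genotypes, with responses of -1.58 in null larvae and -1.50 in controls, and so did Echs1, with -0.81 in null larvae and -0.45 in controls. Neither difference passed the test (adjusted p = 0.817 and 0.146).

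**Figure D3:**
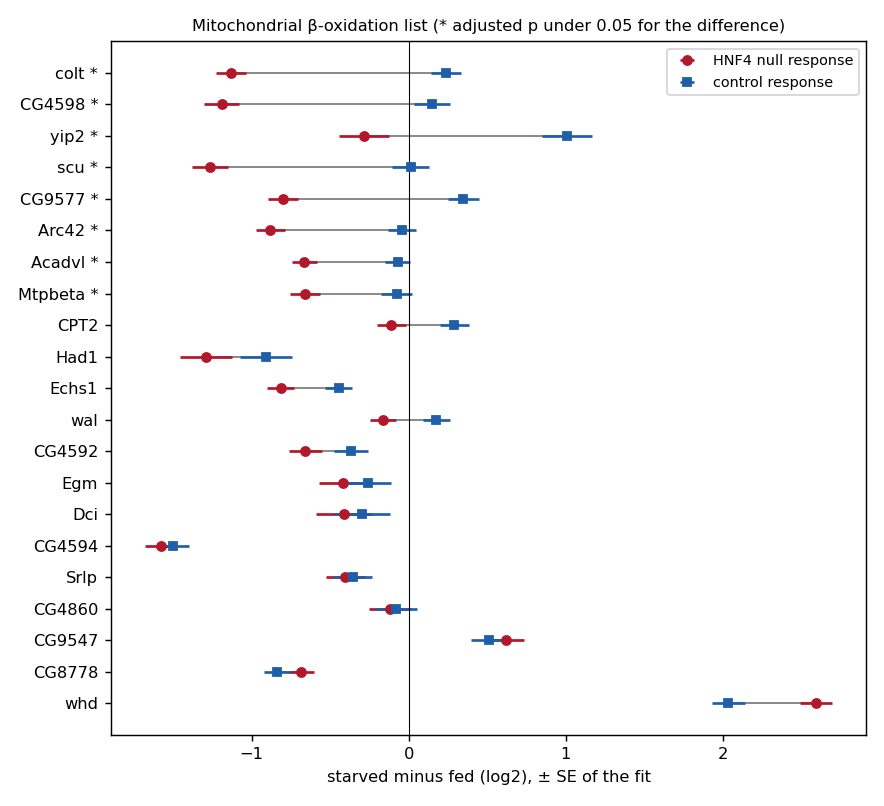
Starvation response (log2, starved minus fed; bars are the SE of the fit) of 21 genes of mitochondrial β-oxidation in HNF4 null larvae (red circles) and control larvae (blue squares). Stars mark the 8 genes whose responses differed; in each of them the null response lies left of the control response.

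In the peroxisomal oxidation list 0 of 9 measured genes were called (limma, 3 at an unadjusted p under 0.05, 1 called with array weights). Over all probe sets 2.59% were called in either direction, so 0 calls among so few genes lie near that share. The differences of the list ran from -0.59 to 0.91 around a median of -0.0089, with a median SE of 0.27. These values do not show that the list kept the same response in both genotypes. Among 6 peroxins, Pex5 (CG14815), the import receptor for peroxisomal matrix proteins, was called as a weaker rise. It had 898, 873 and 871 in starved null larvae, 731, 712 and 728 in fed null larvae, 2115, 2199 and 2423 in starved controls and 1242, 1206 and 1217 in fed controls, so that starvation raised it 1.22-fold in null larvae and 1.84-fold in controls (difference -0.59 ± 0.10, adjusted p = 0.0118, 12 of 12 fits). Among 11 acyl-CoA synthetases, which activate fatty acids, Acsf2 (CG12512) gained a 2.24-fold fall in null larvae, with a control response of 0.012 (difference -1.17 ± 0.19, adjusted p = 0.0117, 12 of 12). Pex5 and Acsf2 were the only calls in their lists, against 0.765% of all probe sets called more negative.

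Starvation lowered the transcripts of both core enzymes of fatty acid synthesis in either genotype, and the fall was deeper in null larvae. FASN1 (CG3523), the fatty acid synthase, had 861, 936 and 638 in starved null larvae, 20694, 23518 and 20889 in fed null larvae, 4809.9, 5275 and 5002 in starved controls and 21799, 19291 and 23567 in fed controls. The fed groups overlapped, while the starved null arrays lay far below the starved controls. Starvation lowered FASN1 27.0-fold in null larvae and 4.27-fold in controls, and the log2 responses differed by -2.66 ± 0.19 (adjusted p = 5.79e-05, 12 of 12 fits). ACC, the acetyl-CoA carboxylase that makes its malonyl-CoA substrate, had 773, 944 and 777 in starved null larvae, 5473, 8883 and 5925 in fed null larvae, 1959.7, 2223 and 2068 in starved controls and 6844, 5179 and 8711 in fed controls. It fell 7.98-fold in null larvae and 3.25-fold in controls (difference -1.30 ± 0.29, adjusted p = 0.0424, called in 3 of 12 fits).

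Of the 17 measured genes of synthesis and lipid storage, 0 were called more positive and these 2 more negative, with a median difference of -0.26. The shares over all probe sets were 1.82% more positive and 0.765% more negative. In the elongase list of 13, whose members lengthen fatty acids, CG16904 was called. It had 107, 127 and 116 in starved null larvae, 506, 604 and 499 in fed null larvae, 190.3, 229.8 and 257 in starved controls and 278, 296 and 382 in fed controls: fed null arrays lay above fed controls, and starved null arrays below starved controls. Both starved group means were below 250.5, the lowest 25th percentile of any array, and such dim values are less certain. Its responses differed by -1.70 ± 0.20 (adjusted p = 0.00236, 12 of 12). Summed over 6 larval fat body markers, none of them called and the lowest single value 287, the level was 38319 to 44449 in starved null larvae, 48923 to 64312 in fed null larvae, 43762 to 46941 in starved controls and 50366 to 69678 in fed controls. The part of fat body amount in these falls was not tested.

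Starvation raised 8 of 15 measured lipase transcripts in null larvae and 9 in controls. Responses in either direction were called for 75.7% of all probe sets in null larvae and for 68.2% in controls. bmm, the triglyceride lipase brummer, had 6121, 5729.5 and 6674 in starved null larvae, 735, 622 and 761 in fed null larvae, 5412, 5391 and 5801 in starved controls and 867, 620.1 and 499.8 in fed controls, with responses of 3.13 in null larvae and 3.10 in controls. Lip3, an acid lipase family member, rose by 5.47 in null larvae and 5.47 in controls. The differences of these 2 genes were 0.032 ± 0.23 (SE, adjusted p = 0.959) and 0.00024 ± 0.25 (adjusted p = 0.9998). Among 15 lipases 2 were called, both more negative in null larvae, against 0.765% of all probe sets. CG5966 rose 6.53-fold in null larvae and 13.3-fold in controls (difference -1.03, adjusted p = 0.0411, 3 of 12 fits), and the dim CG6675 gained a 1.67-fold fall (adjusted p = 0.0426, 2 of 12).

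Both glutamine synthetases were classed as reversed, Gs1 with less certainty than Gs2. Gs2 (CG1743), the cytosolic enzyme, had 1915, 1793 and 1874 in starved null larvae, 2934, 3826 and 3459 in fed null larvae, 4476, 4436 and 4732 in starved controls and 4158, 3312 and 3043 in fed controls. The fed groups overlapped; starved null arrays were the lowest and starved controls the highest of the 12. It fell 1.82-fold in null larvae and rose 1.31-fold in controls, a difference of -1.25 ± 0.17 (adjusted p = 0.00568, 12 of 12 fits). Gs1, the mitochondrial enzyme, had 3150.2, 3269 and 3184 in starved null larvae, 3263, 5448 and 4152 in fed null larvae, 5773, 6181 and 6124 in starved controls and 3814, 3902 and 4493 in fed controls. Its starved and fed null arrays overlapped, so the fall in null larvae is uncertain. The responses of Gs1, -0.39 in null larvae and 0.57 in controls, differed by -0.96 ± 0.21 (adjusted p = 0.0413, 4 of 12). Gs2 and Gs1 were 2 of 6 measured genes of glutamine and glutamate metabolism, whose median difference was -0.19, against 0.765% of all probe sets called more negative. Of 12 genes listed for the tricarboxylic acid cycle only Idh, an isocitrate dehydrogenase, was called, with responses of -1.05 in null larvae and -0.37 in controls (difference -0.68, adjusted p = 0.0338, 3 of 12). Whether that enzyme serves the cycle itself was not tested.

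Sterol-binding proteins of the Npc2 family moved in both directions. Npc2e (CG31410) had 322, 469 and 480.1 in starved null larvae, 810.4, 535 and 773 in fed null larvae, 1425, 1086 and 1441 in starved controls and 916, 975 and 561 in fed controls, with responses of -0.74 in null larvae and 0.72 in controls (difference -1.45 ± 0.34, adjusted p = 0.0494, 3 of 12 fits). Npc2b fell 1.31-fold in null larvae and 2.14-fold in controls, a weaker fall (difference 0.71, adjusted p = 0.0136, 12 of 12). These were the 2 called genes among 15 lipoproteins and sterol carriers, 1 in each direction. Over all probe sets 1.82% were called more positive and 0.765% more negative.

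Among genes with 1 symbol, the 3 largest positive differences were of cytochrome P450 monooxygenases, which oxidise hormones, fatty acids and foreign compounds. Of 63 measured P450 genes 8 were called more positive and 1 more negative in null larvae. The background was 1.82% of probe sets more positive and 0.765% more negative, the median difference of the P450 list was 0.099, and 19 of 63 had an unadjusted p under 0.05. Between 5 and 13 were called more positive when single arrays were left out, and 13 without both low-weight arrays. With control fed replicate 3 left out there were 13, and there were 5 without HNF4 null fed replicate 3 or without any single one of the control starved replicates. In the series matrix 4 were called more positive, and 3 when a difference above 1.5-fold was required.

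Cyp6a8 (CG10248), a member of the Cyp6 family that is known for induction by foreign compounds, had 8290.3, 9841 and 13514 in starved null larvae, 1184, 1048 and 1333 in fed null larvae, 679, 562 and 586 in starved controls and 1206, 1042 and 959 in fed controls. Starved null arrays stood above all others, while the starved controls were the lowest. It rose 8.74-fold with starvation in null larvae and fell 1.75-fold in controls, a difference of 3.94 ± 0.24 (adjusted p = 3.16e-05, 12 of 12 fits). Cyp6w1 (CG8345) had 12456, 12703 and 16548 in starved null larvae, 1058, 1217 and 1255 in fed null larvae, 556, 751 and 734 in starved controls and 703, 534 and 508 in fed controls. It rose 11.7-fold in null larvae, while the control response of 0.23 ± 0.16 did not pass, and the difference was 3.33 ± 0.23 (adjusted p = 5.79e-05, 12 of 12).

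Cyp6a2 (CG9438) had 5157, 4387 and 7847 in starved null larvae, 338, 328 and 390.5 in fed null larvae, 426, 309 and 482 in starved controls and 301, 244 and 279.9 in fed controls. Starvation raised it in both genotypes, to a mean of 5797 ± 1817 in null larvae and 406 ± 87.8 in controls (SD, n = 3 each; 14.3-fold apart), and the rise was larger in null larvae (difference 3.46 ± 0.30, adjusted p = 0.000233, 12 of 12 fits). The starved null arrays stood far above the rest, and the control groups did not overlap. Cyp4d14 lost its response: it fell 2.81-fold in controls, and in null larvae the response was 0.69 ± 0.33 (difference 2.18, adjusted p = 0.039, 4 of 12). Cyp4e2 gained a 2.43-fold rise (difference 1.42, adjusted p = 0.00229, 12 of 12). Stronger rises were called for Cyp6a20 (1.79, 7 of 12), Cyp4p1 (1.67, 3 of 12) and Cyp18a1 (0.96, 12 of 12), the enzyme that inactivates ecdysteroids. Cyp4e3 ran the other way, with a rise of 2.61-fold in controls that was lost in null larvae (difference -1.80, adjusted p = 0.0409, 4 of 12); its group means were below 250.5 except in starved controls.

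Glutathione S-transferases, which couple glutathione to reactive compounds, fell with starvation for 20 of 30 genes in null larvae, and for 20 of 30 in controls. Called responses in either direction made up 75.7% of all probe sets in null larvae and 68.2% in controls. Of the 30, 4 were called more positive and 0 more negative in null larvae, against 1.82% and 0.765% of all probe sets, with a median difference of 0.040. In the series matrix 2 were called more positive, and 1 when a difference above 1.5-fold was required. GstD2 (CG4181) had 3063, 5410.5 and 3825 in starved null larvae, 2349, 2903 and 3735 in fed null larvae, 946, 1001 and 1032 in starved controls and 3529, 3123 and 2851 in fed controls. It fell 3.18-fold in controls and its null response of 0.44 ± 0.20 did not pass (difference 2.11 ± 0.28, adjusted p = 0.00532, 12 of 12 fits). GstD3 had 2337, 2995 and 2982 in starved null larvae, 1061, 1049 and 1192 in fed null larvae, 978, 866 and 932 in starved controls and 1346, 1545 and 1247 in fed controls, a 2.51-fold rise in null larvae against a 1.49-fold fall in controls (difference 1.90 ± 0.16, adjusted p = 0.000233, 12 of 12). GstE5 fell less in null larvae than in controls (difference 0.99, adjusted p = 0.0414, 2 of 12), and GstD1 lost a 1.56-fold fall (difference 0.64, adjusted p = 0.0278, 5 of 12).

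GstD1, GstD2 and GstD3 are neighbours on chromosome arm 3R, and Cyp6a8 and Cyp6a20 on 2R. Such family members are similar in sequence and can share signal between probe sets. That was not tested, so the separate values of each are uncertain. Jheh2 (CG15102), a juvenile hormone epoxide hydrolase, reversed its response with 3853, 5061 and 5092 in starved null larvae, 3155, 2786 and 3119.9 in fed null larvae, 1704, 1604 and 1952 in starved controls and 3079.8, 2619 and 2240.2 in fed controls. Its responses were 0.62 ± 0.14 in null larvae and -0.59 ± 0.14 in controls (difference 1.21 ± 0.20, adjusted p = 0.0129, 12 of 12 fits). Of 26 UDP-glycosyltransferases, the third family of this detoxification set, 0 were called, beside 2.59% of all probe sets in either direction. In that list 4 had an unadjusted limma p under 0.05, 4 were called with array weights, and the median difference was -0.15. Summed markers of oenocytes, cells rich in P450 enzymes, were 10988 to 12298 in starved null larvae, 16462 to 18574 in fed null larvae, 12455 to 14347 in starved controls and 16251 to 17461 in fed controls. None of the 7 oenocyte markers was called, and their lowest value was 98.3. The brightest, Desat1, averaged 6937 and the dimmest, Fad2, 136, so bright markers weigh most in the sum.

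**Figure D4:**
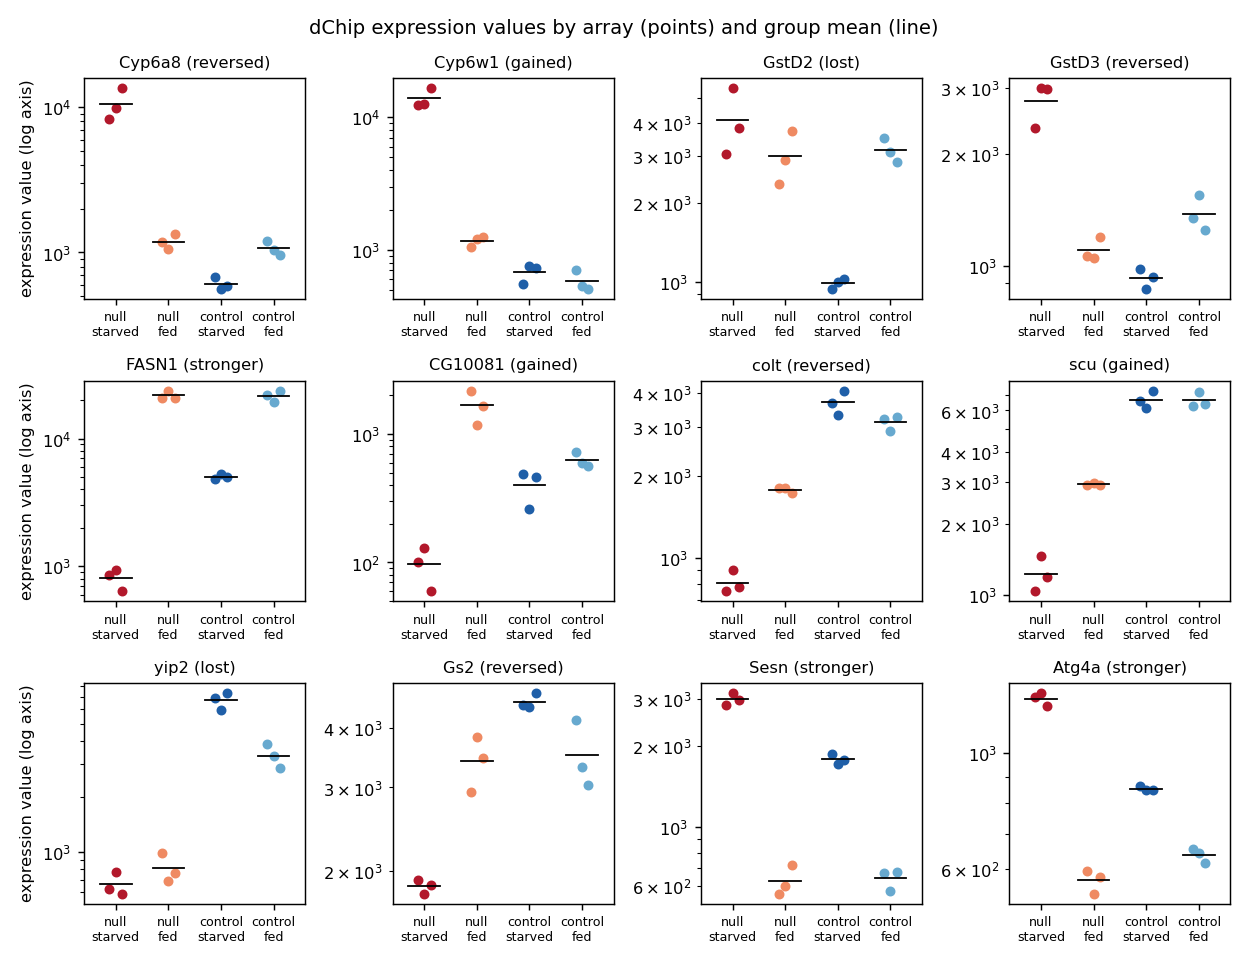
Expression values (log axis, a separate range in each panel) of 12 genes on the 12 arrays, in the order HNF4 null starved, HNF4 null fed, control starved and control fed. Points are arrays, lines are group means, and the class of each gene stands beside its name. Cyp6a8 rises with starvation in null larvae and falls in controls, while colt and Gs2 do the reverse.

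Transcripts that both genotypes raised in starvation were raised further in null larvae for part of the autophagy and nutrient-sensing genes. Of 19 autophagy genes 3 were called more positive and 0 more negative, against 1.82% and 0.765% of all probe sets, with a median difference of 0.31 and 10 at an unadjusted p under 0.05. The number called lay between 2 and 6 when single arrays were left out, the 6 without HNF4 null starved replicate 2, and was 6 without both low-weight arrays. In the series matrix 0 were called, and 0 when a difference above 1.5-fold was required. Atg4a (CG4428), a protease that processes Atg8, had 1277, 1298 and 1227 in starved null larvae, 595, 538 and 579 in fed null larvae, 865, 850.1 and 847 in starved controls and 656, 643 and 617 in fed controls. Fed null arrays lay below fed controls and starved null arrays above starved controls, so the 2.22-fold rise in null larvae exceeded the 1.34-fold rise in controls (difference 0.73 ± 0.093, adjusted p = 0.0038, 12 of 12 fits). Atg18a, which binds phosphoinositides on the forming autophagosome, differed by 0.66 ± 0.10 (adjusted p = 0.0107, 12 of 12), and Atg16 by 0.45 (adjusted p = 0.0427, 2 of 12).

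Sesn (CG11299), the sestrin that restrains TORC1, had 2859, 3148 and 2976 in starved null larvae, 562, 599.8 and 719 in fed null larvae, 1865, 1721 and 1775 in starved controls and 674, 576 and 678 in fed controls. It rose 4.80-fold in null larvae and 2.79-fold in controls (difference 0.78 ± 0.14, adjusted p = 0.0214, 9 of 12 fits). It was the 1 called gene among 16 of insulin, FOXO and adipokinetic hormone signalling, a list with a median difference of 0.31. Over all probe sets 1.82% were called more positive. foxo itself, the transcription factor, rose by 1.29 in null larvae and 0.94 in controls, and that difference did not pass (adjusted p = 0.0908). trbl, a tribbles pseudokinase, was called among 10 stress response genes (difference 0.41, adjusted p = 0.0411, 2 of 12). Bcat, the branched-chain amino acid transaminase, was called among 17 genes of amino acid breakdown (difference 0.93, adjusted p = 0.0327, 3 of 12), and Mal-B2, a maltase, among 11 maltases and amylases with a 9.66-fold rise in null larvae and a 5.06-fold rise in controls (adjusted p = 0.0165, 11 of 12). Pepck1, of gluconeogenesis, had responses of 1.47 in null larvae and 1.61 in controls that were not called as different.

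Cuticle protein transcripts fell with starvation for 53 of 76 genes in null larvae and for 37 in controls. A response in either direction was called for 75.7% of all probe sets in null larvae and for 68.2% in controls. The responses of 6 differed, 2 more positive and 4 more negative in null larvae, against 1.82% and 0.765% of all probe sets, so the more positive calls lie near the background. The median difference of the list was -0.43. Called more negative were 10 without HNF4 null starved replicate 2, 10 without control fed replicate 3, 11 without control starved replicate 2, 1 without any other single array, and 17 without both low-weight arrays. In the series matrix 0 were called in either direction. Cpr67Fa1 had 303, 616 and 301 in starved null larvae, 12827, 13646 and 12412 in fed null larvae, 1679, 607 and 1859 in starved controls and 3534, 6091 and 7232 in fed controls; the starved groups overlapped, and fed null arrays stood above fed controls (difference -2.96 ± 0.59, adjusted p = 0.0318, 3 of 12 fits). Cpr78Cc had 612, 803 and 727 in starved null larvae, 5629, 6158 and 6568 in fed null larvae, 2685, 1345 and 2511 in starved controls and 4523, 4088 and 5693 in fed controls, with overlapping fed groups (difference -1.93 ± 0.32, adjusted p = 0.0139, 12 of 12). Cpr47Eb was a stronger rise (1.09, 12 of 12) and Cpr67B a lost fall (1.00, 11 of 12).

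Some of the largest differences were of genes with no assigned role here. CG10081 and its neighbour CG10073 on arm 2R had the 2 largest negative differences among genes with 1 symbol. CG10081 had 101, 129 and 59.7 in starved null larvae, 2166, 1183 and 1661 in fed null larvae, 490.4, 261 and 459 in starved controls and 725, 593 and 566 in fed controls. Fed null arrays were the highest and starved null arrays the lowest, a 17.6-fold fall in null larvae against a control response of -0.68 ± 0.32 that did not pass (difference -3.45 ± 0.45, adjusted p = 0.00382, 12 of 12 fits). CG10073 had 217, 277 and 121 in starved null larvae, 3594, 3604 and 3845 in fed null larvae, 871, 729 and 1539 in starved controls and 2069, 1907 and 2547 in fed controls (difference -3.13 ± 0.43, adjusted p = 0.00568, 12 of 12). The starved null means of both lay below 250.5, and signal shared between the 2 probe sets was not tested.

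CG9289, which lies close to Hnf4 on arm 2L, was near the floor of the scale in controls. It had 1857, 1573 and 2287 in starved null larvae, 460.2, 309 and 415 in fed null larvae, 28.1, 33.9 and 34.7 in starved controls and 45.9, 51.0 and 45.5 in fed controls, so that both null groups lay far above both control groups. It rose 4.84-fold with starvation in null larvae and fell 1.48-fold in controls (difference 2.84 ± 0.23, adjusted p = 0.000205, 12 of 12), and the control values lie so far below 250.5 that the control fall is uncertain. Of the 20 measured genes nearest to Hnf4, 1 more was called, raw, a regulator of JNK signalling (0.64, adjusted p = 0.0108, 12 of 12). Over all probe sets 2.59% were called in either direction.

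Lost responses were led by CG6908 and CG2065. CG6908 had 3024, 5516 and 8893 in starved null larvae, 3301, 3063 and 4079 in fed null larvae, 1126, 774 and 1162 in starved controls and 4595, 3271 and 2353 in fed controls, a 3.27-fold fall in controls only (difference 2.32 ± 0.49, adjusted p = 0.039); it was called in 3 of 12 fits, and its starved null arrays spread widely. CG2065 fell 3.64-fold in controls, with a null response of 0.42 ± 0.30 (difference 2.28, adjusted p = 0.0217, 7 of 12). nol and CG11300 fell in both genotypes and less in null larvae: nol 2.31-fold against 8.84-fold, and CG11300 3.79-fold against 11.5-fold (10 and 4 of 12). Obp56e, an odorant-binding protein, fell 2.33-fold in controls while the null response was 0.24 (difference 1.47, adjusted p = 0.00114, 12 of 12). Its means were 179 in starved null larvae, 151 in fed null larvae, 228 in starved controls and 537 in fed controls. All but the last lay below 250.5, and fed null arrays already lay below fed controls.

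Several large gene groups held no called difference between genotypes, beside 2.59% called in either direction over all probe sets. Their counts of rises and falls stand beside a called response, in either direction, for 75.7% of all probe sets in null larvae and 68.2% in controls. The respiratory chain and ATP synthase fell for 45 of 56 genes in null larvae and for 45 in controls. Of the 56, 0 were called (limma, 2 at an unadjusted p under 0.05, 0 with array weights), and their differences ran from -0.32 to 0.33. Mitochondrial ribosomal proteins fell for 63 of 66 genes in null larvae and for 59 in controls, with 0 called (1 unadjusted, 3 with array weights). Their differences were small but mostly of one sign, 62 below 0 and 4 above. The median was -0.20, and -0.21 in the series matrix, beside -0.019 over all probe sets. These genes share the same arrays, so that count of signs is no test. Of 38 cytosolic ribosomal proteins 5 rose and 1 fell in null larvae and 8 rose and 1 fell in controls, and 0 were called (0 unadjusted, 0 with array weights), with differences of -0.36 to 0.09. The immune list of antimicrobial peptides, Bomanins and recognition proteins rose for 15 of 21 genes in null larvae and for 16 in controls. There 0 were called (4 unadjusted, 3 with array weights), with wide differences of -1.48 to 1.08. At a share of 2.59% lists of this size would hold few calls, so 0 calls set none of them apart. Such counts at 3 arrays per group do not show that responses were equal.

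Of 10 cell and tissue marker lists, 9 had 0 called genes (limma), with 0 to 2 genes in each at an unadjusted p under 0.05 and 0 to 2 called with array weights. In hemocytes, the blood cells, vkg, a collagen IV chain also made by fat body, was the 1 called of 12: it had 4706, 5503 and 4138 in starved null larvae, 9692, 12799.6 and 10765 in fed null larvae, 8079, 7489.7 and 7987 in starved controls and 9955, 9117 and 11526 in fed controls, a deeper fall in null larvae (difference -0.84 ± 0.18, adjusted p = 0.0414, 3 of 12 fits). Over all probe sets 0.765% were called more negative and 2.59% in either direction, so 0 calls in lists this short say little. Summed over the 12 hemocyte markers the level was 16830 to 20941 in starved null larvae, 31885 to 36340.3 in fed null larvae, 25748 to 27575 in starved controls and 31863 to 37901 in fed controls. Starved null arrays thus lay below starved controls, and fed groups overlapped; the lowest single marker value was 90.5. The same held for the sums of 7 oenocyte markers, given above, and of 8 male germline markers, which were 1299 to 1771 in starved null larvae, 1538 to 1687 in fed null larvae, 1847 to 2015 in starved controls and 1498 to 1945 in fed controls. Each sum weighs bright markers most: for hemocytes Col4a1 averaged 9770 and eater 157, and the called vkg is part of that sum. The part of these tissues in the differences was not tested.

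**Figure D5:**
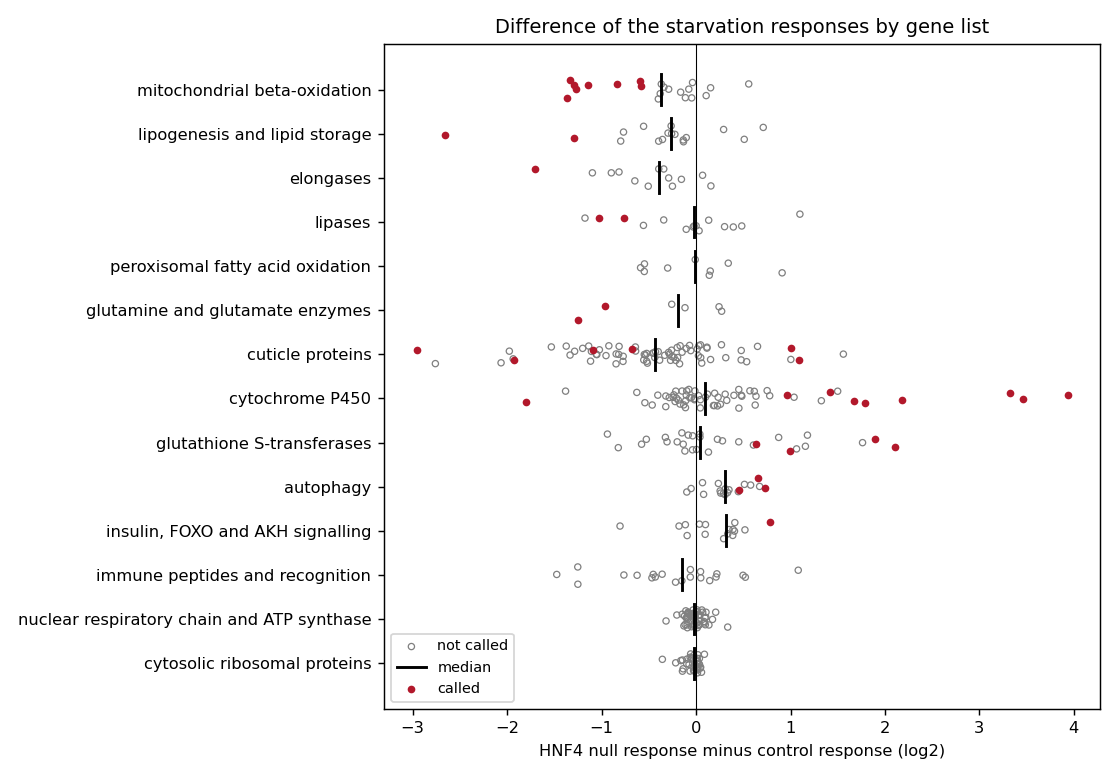
Difference of the starvation responses (HNF4 null minus control, log2; horizontal axis) of each measured gene of 14 lists. Filled red points passed the test, open points did not, and bars are list medians. The called β-oxidation genes all lie left of 0, the P450 list runs from -1.80 to 3.94 with 8 of its 9 called genes right of 0, and respiratory chain and ribosomal protein genes lie close to 0.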

How the data were processed

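Per the file headers, the authors used dChip to normalize the intensity values of the main table, which are linear and cover only probe sets called Present. Its settings are not given in the sources used here. The series matrix holds deposited intensity values of the same 12 arrays, computed by a method not given there, and was an alternative only. Columns were matched to samples by name, and each of the 12 dChip columns correlated best with its own sample in the series matrix.

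Values were raised to a floor of 16 (11 of 116028 lay below it), taken to log2 and fitted with limma 3.58.1 in R 4.3.3 with 1 mean per group (8 residual and 3.12 prior degrees of freedom). The contrast was the null response minus the control response. Tests were two-sided, with Benjamini-Hochberg adjustment over 9669 probe sets and a threshold of 0.05. Gene names came from the platform annotation, with symbols and neighbours from the RefSeq table of assembly Release 6 plus ISO1 MT; 7970 had 1 symbol, 248 several and 1451 none. A gene is represented by its brightest probe set. The code was tested on simulated data.

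Genes were named by a rule: the 12 largest differences in each direction, the 5 largest in each class and direction, up to 5 called members of each list, and Hnf4. The 48 gene lists, of which 912 genes were measured, and the quantity described were chosen with earlier results of these data known, and 2 more lists after the values were seen. Alternatives were another table, floors of 1 and 64, quantile normalization, median centring, a filter on dim probe sets, the replicate number as a block, variance trend, array weights, a minimum change of 1.5-fold, the square root scale and each array left out. Leaving out both low-weight arrays was added after seeing the data.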

Additional observations from a re-analysis of the deposited data

Results flagged for a closer look

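The starvation response differed between genotypes, by the test of the difference itself, for 250 probe sets. Among the genes named, the following moved in opposite directions with starvation, with the starved and fed arrays of each genotype apart. Cyp6a8 differed by 3.94, CG9289 by 2.84, GstD3 by 1.90, Jheh2 by 1.21 and CG12702 by 0.97, all rising in null larvae and falling in controls. CG12702 had 690.1, 624 and 817 in starved null larvae, 527, 552 and 553 in fed null larvae, 496, 474 and 487 in starved controls and 854, 653 and 709 in fed controls. Npc2e differed by -1.45, colt by -1.37, Gs2 by -1.25, CG9577 by -1.15 and zetaTry, a trypsin, by -0.73, all falling in null larvae and rising in controls. zetaTry had 2785, 2671 and 2669 in starved null larvae, 3766, 3311 and 3832 in fed null larvae, 3649.6, 3822 and 3879 in starved controls and 3222, 3379.9 and 2624 in fed controls and was called in 6 of 12 fits that each left out 1 array.

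The series matrix holds 9100 probe sets that the dChip table lacks. There, 6 were called (limma, adjusted over all 18769 probe sets of that matrix), and 548 had an unadjusted p under 0.05. Drsl2, a drosomycin-like antifungal peptide gene, averaged 34.7 in starved null larvae, 6.43 in fed null larvae, 309 in starved controls and 8.5 in fed controls, and its responses differed by -3.12 ± 0.40 (SE, adjusted p = 0.0297). GstD9, a glutathione S-transferase, averaged 1018 in starved null larvae, 1136 in fed null larvae, 549 in starved controls and 1336 in fed controls (difference 1.12 ± 0.15, adjusted p = 0.0343). CG12769 differed by -1.59 and CG17786 by 0.87. The other 2 probe sets have no gene name here and differed by -1.52 and -1.92. For these 2, CG12769 and Drsl2 the fed means of both genotypes lay below the floor of 16, so the size of their differences depends on that floor.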

How the results depend on the processing

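The number of probe sets whose responses differed, 250, was 1208 with array weights, 800 without both low-weight arrays, 132 with the replicate number as a block, 26 in the series matrix and 7 when a difference above 1.5-fold was required. When 1 array was left out it lay between 81 and 549. With median centring the split was 131 to 88 among 219 calls, on the square root scale 257 to 64 among 321, with array weights 656 to 552, without both low-weight arrays 433 to 367, with the block 101 to 31 and in the series matrix 16 to 10. Array weights shared 249 and the series matrix 20 of the 250 calls. Of the 250, 243 had the same sign in the series matrix and 199 an unadjusted p under 0.05 there.

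The response of null larvae, called for 7322 probe sets, was called for 2263 at a minimum of 1.5-fold and for 4463 of the brighter 5801. The response of controls, 6594, gave 1366 and 4130. The classes ranged, over fits without 1 array, from 41 to 323 stronger, 16 to 156 gained, 10 to 38 reversed, 4 to 49 lost and 2 to 29 weaker. Counting a response only from 1.5-fold gave 107 stronger, 90 gained, 22 lost, 9 weaker, 3 reversed and 19 with neither response.

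In the series matrix CG5321 changed sign (0.62, adjusted p = 0.763) and so did Obp19c (0.13, adjusted p = 0.953); the cause was not tested. Of the 94 named genes that were called, 38 were called in every fit without 1 array.

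Samples with the same replicate number showed no general tendency to deviate together: 5 of 18 same-numbered pairs correlated above 0.1, over a range of -0.40 to 0.28. With 3 arrays per group such correlations cannot exclude shared handling of same-numbered samples. The column letters do run through the 4 groups within each replicate number, so the unblocked and the block result are both given. From the dimmest to the brightest 2417 or 2418 probe sets, in 4 groups by mean level, 1.08%, 1.86%, 3.89% and 3.52% were called; why the rate differs was not tested.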

Other observations

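Among the stronger and gained rises were several genes of the ESCRT machinery, the complexes that bud vesicles into endosomes and help to close autophagosomes. The list was written after these genes were seen among the calls, so its counts describe these data and support nothing. All 16 measured members had a positive difference, 6 were called, and the median difference was 0.38, beside -0.019 over all probe sets. The call rate over all probe sets in that direction was 1.82%. Vps24 had 1875, 1839.7 and 1939.7 in starved null larvae, 1202, 1177 and 1195 in fed null larvae, 1561, 1502 and 1589 in starved controls and 1446, 1431 and 1423 in fed controls. It rose 1.58-fold in null larvae, while the control response of 0.11 ± 0.06 did not pass the test, a difference of 0.55 ± 0.085 (limma adjusted p = 0.0102, called in 12 of 12 fits that each left out 1 array). Ist1 had 2148, 2232 and 2241 in starved null larvae, 786, 818 and 856 in fed null larvae, 1493, 1542 and 1483 in starved controls and 886, 813 and 843 in fed controls, with overlapping fed groups and starved null arrays above starved controls (difference 0.60 ± 0.093, adjusted p = 0.0105, 12 of 12). CHMP2B (0.61, 10 of 12), Vps2 (0.43, 2 of 12), Vps28 (0.42, 2 of 12) and Vps37B (0.42, 2 of 12) were called too. With single arrays left out, 2 to 6 members were called. There were 3 with median centring, 3 with quantile normalization and 0 in the series matrix.

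A second such list, of FGF receptor and Ras pathway genes, held 4 called more positive of 9, again against 1.82% of all probe sets and with no support from that count. They were the receptor htl (0.51, 1 of 12), the adaptor dos (0.66, 10 of 12), the phosphatase csw (0.51, 1 of 12) and edl (0.74, 2 of 12), a regulator of the Ets factor downstream. Between 0 and 4 were called when single arrays were left out, and 0 in the series matrix. Other stronger rises, also chosen after their values were seen, were Timp, an inhibitor of metalloproteinases, with 3053, 3059 and 3529 in starved null larvae, 535, 438 and 467 in fed null larvae, 2000.2, 2003 and 1624 in starved controls and 592, 602 and 494 in fed controls (difference 1.01 ± 0.17, adjusted p = 0.0133, 12 of 12), and Tdc1, a tyrosine decarboxylase, with 2327, 2240.4 and 2439 in starved null larvae, 507, 469 and 565 in fed null larvae, 1026, 1021 and 1051 in starved controls and 522, 473 and 444 in fed controls (difference 1.08 ± 0.12, adjusted p = 0.00197, 12 of 12). SNF4Agamma, the γ subunit of the energy sensor AMPK, rose 3.58-fold in null larvae and 2.23-fold in controls (adjusted p = 0.0411, 3 of 12).

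The called genes were spread over the chromosome arms, with 2.60% to 3.08% of genes called on X, 2L, 2R, 3L and 3R and 0 of 45 on the fourth chromosome.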
